A study of Mus musculus with 4 samples.

Results

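The imprinted Dlk1-Dio3 region of mouse chromosome 12 holds one of the largest groups of miRNA genes in the mouse. Its miRNAs were followed here in MC3T3-E1, a mouse line of osteoblast precursors that was cloned from calvaria, the bone of the skull roof. The members were all array probes for arms of 47 miRNA numbers assigned to the region, from miR-770 at the Dlk1 side to miR-3072 at the Dio3 side. This rule used names only and gave 101 probes for 51 precursors, out of 1898 miRNA probes in all. In the RefSeq annotation, 100 of the 101 probes could be placed, and all 100 lay between Dlk1 and Dio3.

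The 4 groups were MC3T3-E1 cells made to overexpress Wnt3a, Wnt4, Wnt5a or, as the control, GFP. Every group carried a recombinant adenovirus vector and was kept in proliferation medium, so infection and culture were shared by the GFP cells. Total RNA of each group was hybridised to 1 one-colour array, with no replicate array. Each value below is therefore from a single array, no p-value was computed, and no difference has a replicate check. The cells form 1 line, and the level of the introduced gene was not measured on these miRNA arrays.

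In mammals the region is expressed by parent of origin. The protein-coding genes Dlk1, Rtl1 and Dio3 are read from the paternal chromosome. The non-coding RNAs Meg3, Rian and Mirg and the miRNAs are read from the maternal one. Several miRNAs lie antisense to Rtl1, among them miR-127, miR-136, miR-431, miR-433 and miR-434, and in mouse they direct cleavage of the Rtl1 transcript. A second, larger block runs from miR-379 to miR-410 and is best known in neurons, where Mef2 drives it and miR-134 limits dendritic spines. The miRNAs of the region are abundant in embryo, placenta and brain.

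The sequences of the members that the results turn on are shown with the seed, bases 2 to 8, in capitals. They were read from RefSeq (GRCm38.p6), which held the mature sequence of 97 of the 101 members. The first set holds 8 of the 9 members that gave a signal above the detection limit on every array, since their differences between the arrays could be measured. The remaining one, miR-487b-3p, is named only.
miR-494-3p: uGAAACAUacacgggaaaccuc
miR-3072-5p: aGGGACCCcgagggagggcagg
miR-3072-3p: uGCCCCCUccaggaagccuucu
miR-770-3p: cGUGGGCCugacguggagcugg
miR-370-3p: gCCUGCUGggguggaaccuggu
miR-667-5p: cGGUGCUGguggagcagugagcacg
miR-665-3p: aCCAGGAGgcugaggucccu
miR-431-3p: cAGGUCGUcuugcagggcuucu

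The following members are well known from other tissues and gave no signal above the limit on any array. They are shown for contrast, and were picked after their values were seen.
miR-127-3p: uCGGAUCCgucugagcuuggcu
miR-134-5p: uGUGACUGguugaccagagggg
miR-379-5p: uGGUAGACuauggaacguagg
miR-411-5p: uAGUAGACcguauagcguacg
miR-410-3p: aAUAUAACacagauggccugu
miR-434-3p: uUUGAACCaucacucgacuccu
miR-376b-3p: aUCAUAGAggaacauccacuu

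The sequences with a signal were mostly rich in G and C, as described with the base composition further on. The 97 sequences held 91 different seeds. There were 6 seeds shared by a pair of members each, such as AUGUAAC of miR-379-3p and miR-411-3p. None of the 8 miRNAs of the upper list shared its seed with another member.

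Most of the cluster gave no signal above background in these cells. The detection limit of each array was taken from its blank spots, as the mean plus 2 SD of their middle 95%, and a probe with a higher spot median was called detected. These limits were 81.7, 86.9 and 111 intensity units on the Wnt3a, Wnt4 and Wnt5a arrays and 104 on the GFP array. Of the 101 members, 9 were detected on all 4 arrays and 65 on none. Among all 1898 probes, 25.4% were detected on all 4 and 43.6% on none, against 8.91% and 64.4% of the members. Because the arrays measured bulk RNA, few cells with a miRNA and little of it per cell cannot be told apart.

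On single arrays, 34 members were detected with Wnt3a, 14 with Wnt4, 10 with Wnt5a and 14 with GFP. As shares these were 33.7%, 13.9%, 9.90% and 13.9% of the members. The shares of all probes were 56%, 28.8%, 26.4% and 32.5% in the same order, higher on every array. The count on the Wnt3a array was highest for the members and for all probes alike, and the detection limit was lowest there. With the limit set from negative control probes, the counts were 9 members with Wnt3a, 10 with Wnt4, 10 with Wnt5a and 9 with GFP. With the limit at 5 SD of the blank spots they were 15, 8, 10 and 9. The number on the Wnt3a array was thus the highest with limits from blank spots but not with the limit from negative control probes.

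The middle of the cluster sat near the level of blank spots. The median spot signal of the 101 members was 78.7 units with Wnt3a, 70.5 with Wnt4, 86.0 with Wnt5a and 87.8 with GFP. The mean of the blank spots was 72.8, 74.4, 96.9 and 90.8 units in that order. On the Wnt4, Wnt5a and GFP arrays, 69, 83 and 59 members lay below the blank mean, against 17 on the Wnt3a array. Among all probes, 13.9% lay below the blank mean with Wnt3a, 48.6% with Wnt4, 61.2% with Wnt5a and 41.8% with GFP. Values below the blank mean were thus common among all probes on those 3 arrays, and the members' shares, 68.3%, 82.2% and 58.4%, were higher. Levels of such members have only an upper bound at the limit.

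**Figure D1:**
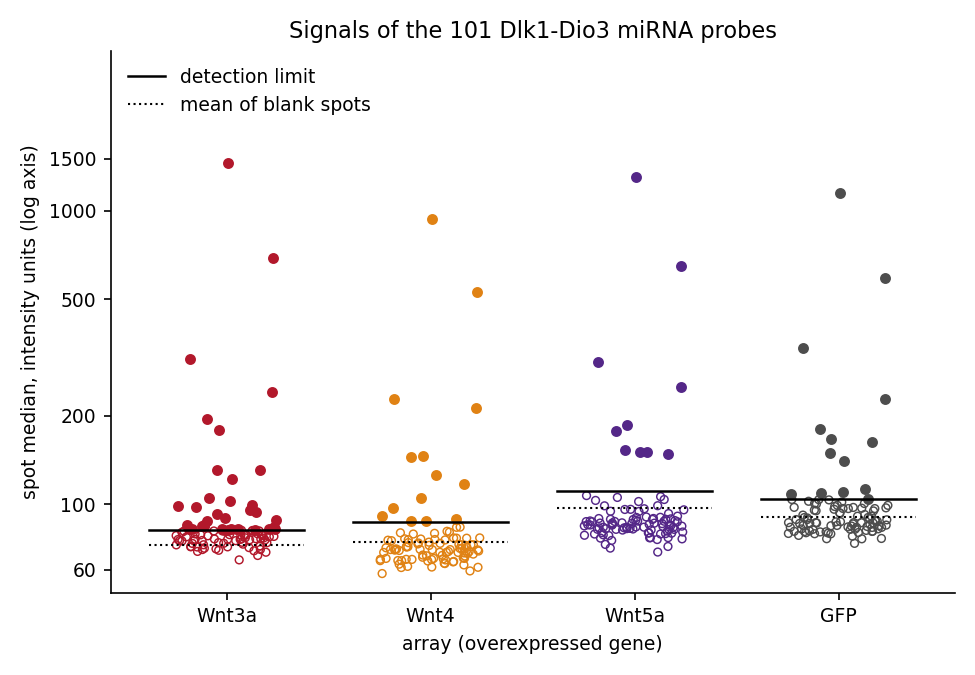
Spot medians of the 101 cluster probes (log axis, intensity units) on the Wnt3a, Wnt4, Wnt5a and GFP arrays, 1 point per probe, filled where detected. Solid lines give the detection limit and dotted lines the mean of blank spots. Most points lie near or below the dotted line on the Wnt4, Wnt5a and GFP arrays and near or above it on the Wnt3a array, and the brightest point, miR-494-3p, stands between 934 and 1451 units.

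In the Rtl1-antisense group, all arms of miR-127, miR-136 and miR-434 were below the limit on every array, whereas miR-431-3p was above it on all 4, miR-433-5p on 2 and miR-431-5p on 1. miR-127-3p, which in mouse targets Rtl1, read 81.7 units with Wnt3a, just under that array's limit, 73.7 with Wnt4 and 96.6 with Wnt5a, against 96.8 with GFP. miR-434-3p, of the same group, read 73.2, 81.0 and 81.9 units with Wnt3a, Wnt4 and Wnt5a and 82.4 with GFP. miR-136-5p read 70.2, 71.7 and 94.8 units with the 3 ligands and 79.5 with GFP. All of these lay under the limit of their array. Of 16 probes in the group, 2 were detected on all 4 arrays and 11 on none.

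Most probes of the block from miR-379 to miR-410 were also below the limit on every array. Of its 73 probes, 3 were detected on all 4 arrays, 20 on 1 to 3 arrays and 50 on none. miR-134-5p, known for its part in dendritic spines, read 76.4, 70.8 and 87.7 units with Wnt3a, Wnt4 and Wnt5a and 90.3 with GFP. miR-379-5p read 79.0, 72.6 and 84.9 units with the 3 ligands and 94.995 with GFP. miR-376b-3p, of a family whose precursors are edited from A to I in brain, read 79.4, 62.6 and 78.8 units with the ligands and 88.8 with GFP. None of these passed the limit on any array. The 12 remaining probes, for miR-341, miR-370, miR-493, miR-673, miR-770 and miR-3072, had 4 detected on all arrays and 4 on none. Among all probes, 25.4% were detected on all 4 arrays and 43.6% on none. The median share of G and C in the known sequences was 45.5% in the block, 54.5% in the Rtl1-antisense group and 65.9% in the remaining probes. The part of composition in these counts was not tested.

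The labelled cell type was set against its marker miRNAs. Of 17 probes for osteoblast or mesenchymal miRNAs, 17 were detected with Wnt3a, 16 with Wnt4, 14 with Wnt5a and 15 with GFP. Their medians were 1048, 1121 and 1173 units on the Wnt arrays and 1275 on the GFP array. Both probes for the liver marker miR-122 were below the limit on all 4 arrays. Of 10 neural probes, 8 were detected with Wnt3a, 4 with Wnt4, 3 with Wnt5a and 3 with GFP, and their medians were 85.5, 83.3, 94.4 and 95.5 units. The brightest neural probe read 331, 247 and 349 units on the Wnt arrays and 313 on the GFP array. Of 16 pluripotent probes, 5, 1 and 1 were detected on the Wnt3a, Wnt4 and Wnt5a arrays and 4 on the GFP array, the brightest at 329.01, 268, 322.2 and 332 units. Of 13 muscle probes, 4, 2 and 2 were detected with the ligands and 2 with GFP. Of 11 blood probes the counts were 4, 1 and 1 with the ligands and 2 with GFP, and of 10 epithelial probes 5, 0 and 0 with the ligands and 1 with GFP. Both endothelial probes were detected with Wnt3a, neither with Wnt4 or Wnt5a, and 1 with GFP.

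The members with a signal were scattered along the region and not confined to 1 stretch. They came from miR-770, whose gene lies within Meg3, from miR-665 and miR-431 opposite Rtl1, from miR-370 within Rian, from miR-494, miR-667 and miR-487b in the large block, and from miR-3072 within Mirg. Precursors between them in the order, such as miR-433, miR-127 and miR-379, had no arm detected on all arrays. Among the 9 detected members, 7 were 3p arms and 2 were 5p arms. The same split over other detected probes is not given here, so it is not read as a trait of the cluster.

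**Figure D2:**
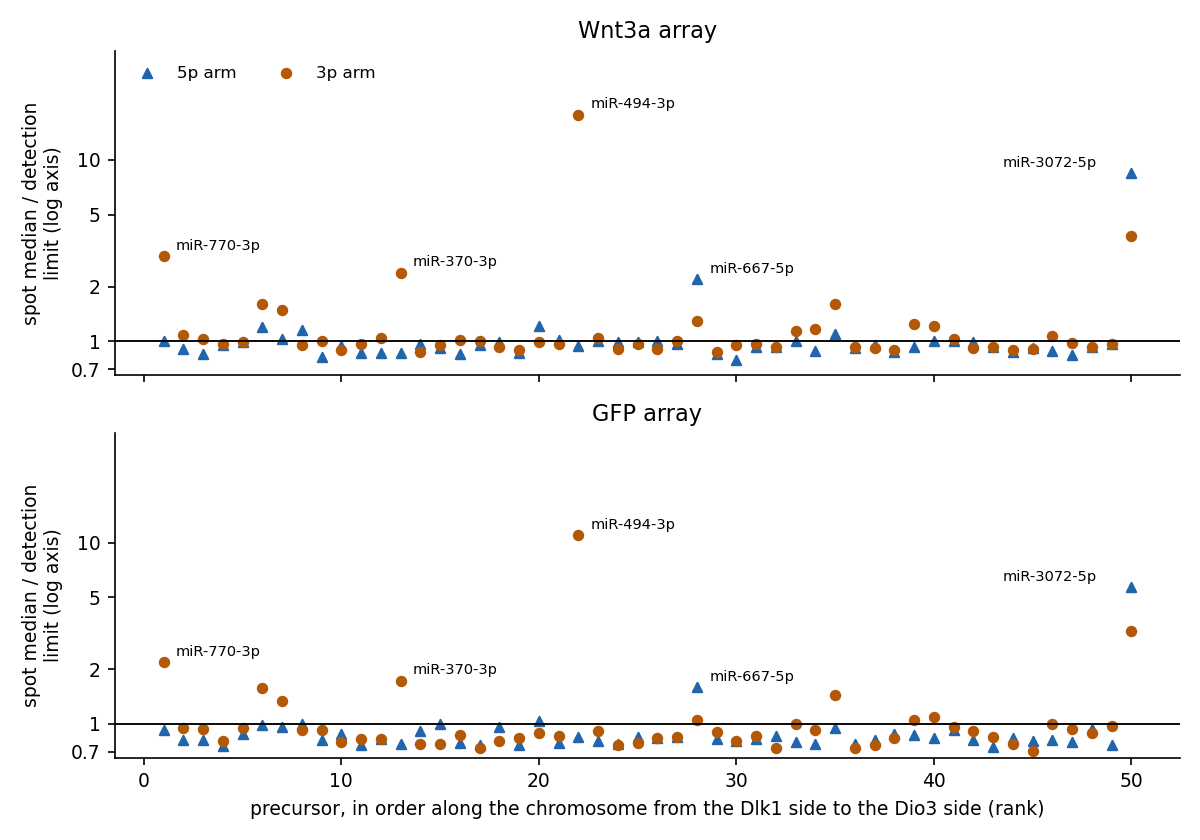
Spot median divided by the array's detection limit (log axis) for each arm, on the Wnt3a array above and the GFP array below, with 50 precursors in their order from the Dlk1 side to the Dio3 side. Triangles are 5p arms and circles 3p arms, and the line at 1 is the limit. Single bright arms (miR-770-3p, miR-370-3p, miR-494-3p, miR-667-5p and both arms of miR-3072) rise from a row of points near or below the limit. miR-496b, which has no position in the annotation used, is left out.

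Both arms were on the array for 50 precursors. Of these, 10 had both arms detected on at least 1 array and 24 had neither arm detected on any. miR-3072 alone had both arms detected on all 4 arrays, and 7 precursors had 1 arm so detected. Counts for precursors outside the cluster are not given here, so these are not read as traits of the cluster. The hairpin of miR-3072 is shown with both arms in capitals, as the precursor with signal from each side, and that of miR-494 as the one with the brightest member and a partner below the limit.
Mir3072: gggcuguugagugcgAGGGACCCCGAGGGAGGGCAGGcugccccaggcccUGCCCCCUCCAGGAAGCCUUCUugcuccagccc
Mir494: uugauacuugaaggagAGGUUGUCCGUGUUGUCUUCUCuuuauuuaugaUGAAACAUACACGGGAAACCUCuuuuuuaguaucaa

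miR-494-3p, from the large block, was the brightest member on every array. Its spot median was 1451 units with Wnt3a, 934 with Wnt4 and 1301 with Wnt5a, against 1147 with GFP. The other arm of the same hairpin, miR-494-5p, read 76.8, 68.1 and 79.8 units with the ligands and 87.8 with GFP, below the limit on each array. Brightness depends on the probe as well as on abundance, so the order of members by signal is not an order of abundance.

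After normalization, miR-494-3p differed from GFP by a log2 value of 0.21 with Wnt3a, -0.10 with Wnt4 and 0.18 with Wnt5a. The standard error (SE) from replicate control spots within an array was 0.15 for Wnt3a against GFP, 0.15 for Wnt4 against GFP and 0.17 for Wnt5a against GFP. It covers neither hybridisations nor cultures. None of the 3 differences of miR-494-3p passed 2 SE. With the scanner's background value of each spot in the correction, the differences were -0.16 with Wnt3a, -1.33 with Wnt4 and 0.34 with Wnt5a. The sign with Wnt3a thus turned, and the value with Wnt4 passed 2-fold. Under that setting 29 of all 517 probes were at least 2-fold higher with Wnt4 than with GFP and 36 at least 2-fold lower. The sign with Wnt4 also turned in the authors' deposited table after rescaling, at 0.02, and the sign with Wnt5a in that table as deposited, at -0.32.

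miR-3072-5p gave 692 units with Wnt3a, 527 with Wnt4 and 648 with Wnt5a, against 589.5 with GFP. miR-3072-3p, from the same hairpin, gave 312 units with Wnt3a, 229 with Wnt4 and 306 with Wnt5a, against 340.3 with GFP. The 5p arm was above its GFP value on the Wnt3a and Wnt5a arrays, whereas the 3p arm was below it on all 3 Wnt arrays. In normalized log2 values the 5p arm differed from GFP by 0.19, 0.09 and 0.11 with Wnt3a, Wnt4 and Wnt5a, and the 3p arm by -0.11, -0.32 and -0.17. The value of -0.32 with Wnt4 was the only difference of either arm beyond 2 SE. It was 0.15 when the background column was used and negative under the other alternatives. With the background column the 3p arm was above GFP with all 3 ligands. The 5p value with Wnt4 was below 0 in 4 of 13 alternatives, down to -0.63 with the background column, and the 5p value with Wnt5a ran from -0.36 in the authors' deposited table to 0.68 with the background column.

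miR-770-3p, from the gene within Meg3, read 241, 213 and 251 units with Wnt3a, Wnt4 and Wnt5a and 229 with GFP. Its log2 differences from GFP were 0.12, 0.18 and 0.10 in that order. miR-370-3p, from the gene within Rian, read 195.4 units with Wnt3a, 144.9 with Wnt4 and 177.8 with Wnt5a, against 180.3 with GFP. Its differences were 0.14, -0.04 and -0.01. All of these are within 2 SE of 0. The sign of miR-770-3p with Wnt4 turned in 3 of 13 alternatives, down to -0.23.

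miR-667-5p, from the large block, read 179.6 units with Wnt3a, 146 with Wnt4 and 187 with Wnt5a, against 167 with GFP. Its differences were 0.15, 0.13 and 0.21, all within 2 SE of 0. The value with Wnt4 was below 0 in 3 of 13 alternatives, down to -0.10, and the value with Wnt5a was -0.26 in the authors' deposited table. The 3p arm of the same precursor was detected with Wnt3a and GFP only, at 105 and 109 units, and differed there by 0.08.

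miR-665-3p was lower than GFP with each ligand. It read 131 units with Wnt3a, 118 with Wnt4 and 148 with Wnt5a, against 164 with GFP. The log2 differences were -0.31, -0.21 and -0.14, of which the value with Wnt3a was beyond 2 SE. Its level was near the limits, and with the background column the 3 differences were above 0.

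miR-487b-3p, whose sequence is not shown, read 131, 105 and 153 units with Wnt3a, Wnt4 and Wnt5a and 149.8 with GFP. Its differences were -0.17, -0.23 and 0.05. On the Wnt4 array its signal was below the stricter limit of 5 SD. Its sign with Wnt3a was kept in 11 of 13 alternatives, with values up to 1.19. With Wnt4 the values ran from -0.95 to 0.06 over 12 alternatives. The sign with Wnt5a was kept in 10 of 13, with values down to -0.58. miR-431-3p, the partner of an arm known from muscle regeneration, read 122.1 units with Wnt3a, 126.1 with Wnt4 and 150.4 with Wnt5a, against 139.996 with GFP. Its differences were -0.17, 0.13 and 0.12, all within 2 SE of 0. The negative sign with Wnt3a was not kept in 3 of 13 alternatives, with 0.00 under plain subtraction, 0 with the background column and 1.203 in the authors' deposited table, and the sign with Wnt5a turned in 2. miR-431-5p passed the limit on the Wnt3a array alone, at 84.4 units, against 100.3 with GFP where the limit was higher.

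**Figure D3:**
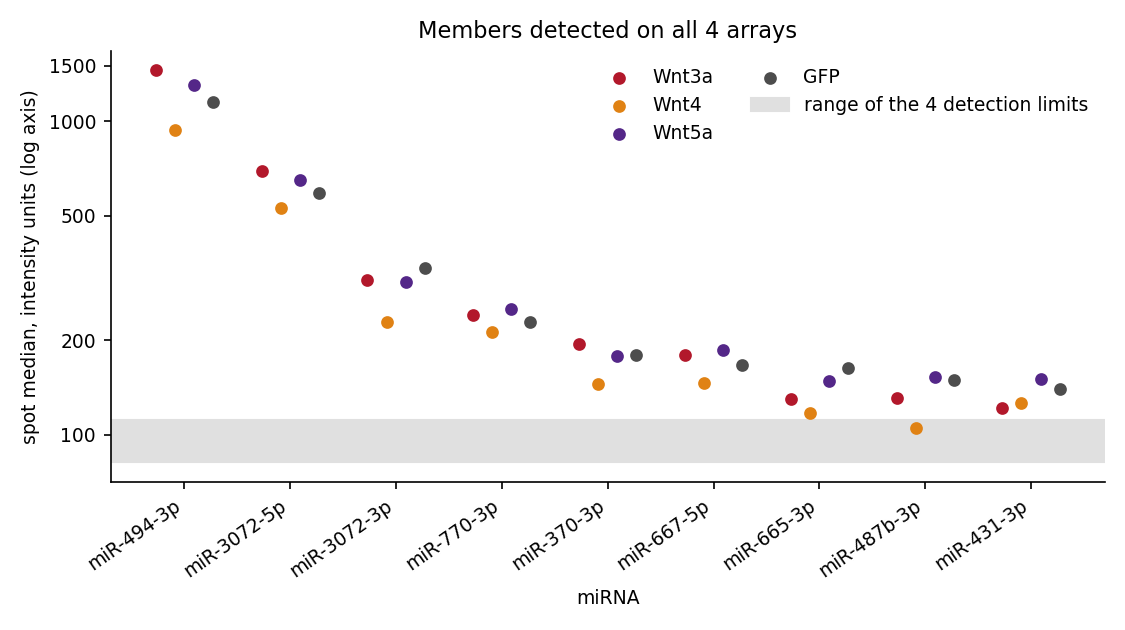
Spot medians (log axis, intensity units) of the 9 members detected on every array, with 1 point for each of the Wnt3a, Wnt4, Wnt5a and GFP arrays. The grey band spans the 4 detection limits, from 81.7 to 111 units. The Wnt4 point is the lowest of the 4 for 8 of the 9 miRNAs, and miR-665-3p, miR-487b-3p and miR-431-3p lie close above it, apart from the Wnt4 point of miR-487b-3p, which lies within the band and above that array's own limit.

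In raw spot medians, 8 of the 9 members were lowest on the Wnt4 array. That order is not particular to the cluster, since 84.2% of the 482 probes detected on all arrays were lowest there. The miRNAs of the cluster thus shared the dimmer signal of that array, and the normalized differences are the values to compare.

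The question put to the Wnt comparisons was whether miRNAs of the cluster differed from GFP with each ligand. No member detected on both arrays passed the folds used. With Wnt3a, 14 members were detected on both arrays, and 0 of them were at least 1.5-fold different from GFP, where 3.76% of all probes detected on both were. At 2-fold the count was again 0, with 1.47% of all probes. Of the 14, 8 were above 0 and 6 below, with a median log2 difference of 0.01 and a range from -0.31 to 0.21. The median of all 611 probes was 0.00.

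With Wnt4, 10 members were detected on both arrays and 0 were 1.5-fold different, against 0.774% of all probes, nor was any 2-fold different, against 0.193%. Above and below 0 there were 5 each, with a median of 0.03 and a range from -0.32 to 0.18. The median of all 517 probes was 0.01.

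With Wnt5a, 9 members were detected on both arrays and 0 were 1.5-fold or 2-fold different, against 0.203% and 0% of all probes. There were 6 above 0 and 3 below, with a median of 0.10 and a range from -0.17 to 0.21, and the median of all probes was 0.00. The background shares are low, so a count of 0 among 9 to 14 members is near the background and is not a result about the cluster. It does not show that levels were equal. The 3 comparisons share the GFP array.

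A deviation of the single GFP array would move all 3 at once. Of the 9 members detected everywhere, miR-3072-5p, miR-770-3p and miR-667-5p were above GFP with all 3 ligands, and miR-3072-3p and miR-665-3p were below it with all 3. These signs were not stable. With Wnt4, miR-3072-5p was below GFP in 4 of 13 alternatives and miR-770-3p and miR-667-5p in 3 each, with Wnt5a all 3 were below it in the authors' deposited table, and miR-3072-3p and miR-665-3p were above it with every ligand when the background column was used. Counted at 2 SE, 1 of 14 members passed with Wnt3a, 1 of 10 with Wnt4 and 0 of 9 with Wnt5a, against 17.8%, 3.87% and 1.01% of all probes.

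**Figure D4:**
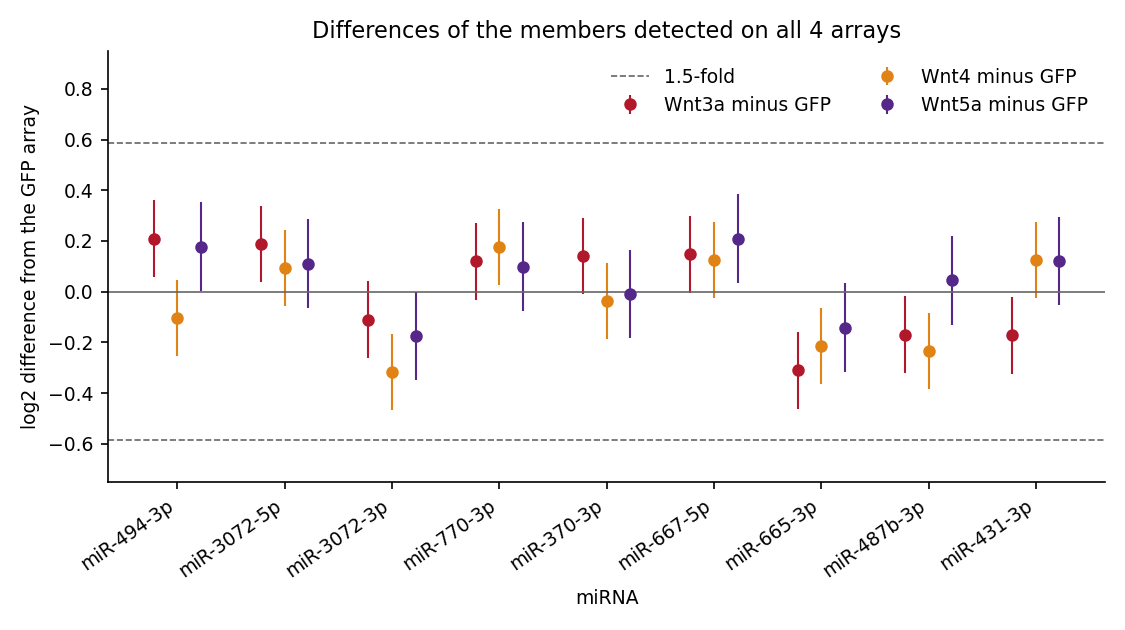
Normalized log2 differences from the GFP array for the 9 members, with 1 point each for Wnt3a, Wnt4 and Wnt5a. Bars are 1 spot-noise SE, and dashed lines mark 1.5-fold. All 27 points lie between the dashed lines, from -0.32 to 0.21.

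Split by position, the groups gave small medians of few values. In the block from miR-379 to miR-410 the median difference was 0.02 over 7 members with Wnt3a, -0.01 over 4 with Wnt4 and 0.18 over 3 with Wnt5a. In the Rtl1-antisense group it was -0.17 over 3 members with Wnt3a, and all 3 were below 0, as were 306 of all 611 probes. That median was -0.01 when arrays were scaled on bright control probes, 0.00 under plain subtraction, 0.05 with the background column and 1.203 in the authors' deposited table. With Wnt4 and Wnt5a that group had 2 members detected on both arrays, 1 above and 1 below 0, with medians of -0.04 and -0.01.

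Between the ligands the members also stayed under 1.5-fold where they were detected on both arrays. Of 9 members with Wnt3a and Wnt5a, 0 passed 1.5-fold and 0 passed 2-fold, against 4.19% and 1.6% of all probes, and 0 passed 2 SE, against 13.8%. Of 13 with Wnt3a and Wnt4, 0 passed either fold, against 5.15% and 1.84%. Of 9 with Wnt5a and Wnt4, 0 passed either fold, against 0.823% and 0.206%, and 0 passed 2 SE, against 2.06%. The background shares for either fold are low here too. Counts of 0 among 9 to 13 members are near them and are not a result about the cluster. They do not show that levels were equal. Between Wnt3a and Wnt4, 4 of the 13 passed 2 SE, against 21% of all probes. They were miR-494-3p at 0.31, miR-431-3p at -0.30, miR-485-5p at -0.31 and miR-300-5p at -0.48, the last 2 named after their values were seen. The SE of this comparison was 0.14. miR-485-5p read 82.5 units with Wnt3a and 87.9 with Wnt4. It was 1.01 times the limit at its highest, and was below the limit on the Wnt5a and GFP arrays. The lowest value was that of miR-300-5p, which read 82.6 units with Wnt3a and 97.1 with Wnt4, a log2 difference of -0.48. On the Wnt3a array it was at 1.01 times the limit, and on the Wnt5a and GFP arrays, at 82.3 and 82.5 units, below it. Its background value was 36.0 units on the Wnt3a array and 100.1 on the Wnt4 array. The 3 spots around it read from 82.6 to 4324 units with Wnt3a and from 70.3 to 3073 with Wnt4. The part of the background value and of these spots in the difference was not tested.

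miR-654-5p of the large block stood out on 1 array. Its sequence is given because it carries the largest contrast in the cluster.
miR-654-5p: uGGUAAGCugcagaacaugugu
The probe read 64.7 units with Wnt3a, 65.3 with Wnt4 and 150.8 with Wnt5a, against 84.4 with GFP. It was under the limit on all arrays but that of Wnt5a, where it was 1.36 times the limit. Bounds were set against the lowest detected level of the other array, in the main normalization only. By these it was at least 1.59-fold higher with Wnt5a than with GFP, at least 1.87-fold higher than with Wnt3a and at least 1.501-fold higher than with Wnt4. The bounds leave out spot noise, with a log2 SE of 0.17 for Wnt5a against each of GFP, Wnt3a and Wnt4. The bound against Wnt4 lay at the edge of 1.5-fold. On the Wnt5a array the 8 spots around miR-654-5p read from 80.0 to 135.7 units, and its own background value was 66.6 against 55.01 on the GFP array. Its partner miR-654-3p was detected on no array. There was 1 spot per array for this probe and no replicate, so a faulty spot and a real signal cannot be told apart.

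Members detected on 1 to 3 arrays were otherwise close to the limit. There were 27 of them, and 24 were at most 1.22 times the limit on the array where they were brightest. The other exceptions besides miR-654-5p were miR-667-3p and miR-134-3p, at 1.29 and 1.253 times the limit of the Wnt3a array. miR-134-3p read 102 units with Wnt3a, 79.7 with Wnt4 and 102 with Wnt5a, against 110.1 with GFP, and differed from GFP by 0.02 with Wnt3a. Of the members seen on 1 array only, 17 were seen with Wnt3a, 1 with Wnt4, 1 with Wnt5a and 0 with GFP. The same count over all probes is not given here, and the detection limit was lowest on the Wnt3a array. These numbers are therefore not read as a result about the cluster. Against GFP, 20 of the 101 members were detected with Wnt3a alone and 0 with GFP alone, where all 1898 probes gave 452 and 5. The largest bound among those 20 was 1.02-fold.

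The authors' deposited table put the cluster on another scale. The table listed values for members on each array, and 43 had one with Wnt3a, 14 with Wnt4, 10 with Wnt5a and 17 with GFP. In all it listed 1113 values with Wnt3a, 568 with Wnt4, 515 with Wnt5a and 638 with GFP, so the larger number with Wnt3a was not particular to the members. miR-494-3p was listed there at 1280, 343 and 343 with Wnt3a, Wnt4 and Wnt5a and 427 with GFP. Between Wnt3a and GFP, 15 of 16 members listed on both were at least 2-fold different in the authors' deposited table, all of them higher, where 84% of all probes were. With Wnt4 the table had 0 of 11 members past 2-fold, against 2.99% of all probes, and with Wnt5a 1 of 9, against 12.5%. That 1 member was miR-665-3p, lower with Wnt5a. Each column equalled the spot median minus a constant, times 1 factor per array, and the factor was 0.929 for Wnt3a, 0.399 for Wnt4, 0.285 for Wnt5a and 0.405 for GFP. The shift of the members with Wnt3a, a median log2 ratio of 1.55, lies beside one of 1.47 for all probes.

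Base composition, which the choice of members had not used, differed between detected and undetected members. The median share of G and C was 66.5% among the 8 sequences detected on all arrays, 54.5% among 26 detected on 1 to 3 arrays and 45.5% among 63 detected on none. Other probes ran the same way, with medians of 59.1% on all arrays and 47.6% on none. miR-3072-5p reached 77.3% and miR-770-3p 72.7%, whereas miR-494-3p, the brightest, had 45.5%. Over the 97 members, the G and C share and the spot median correlated across miRNAs with Spearman's rho of 0.51 with Wnt3a, 0.59 with Wnt4, 0.55 with Wnt5a and 0.44 with GFP. Over 1519 other probes with a sequence, rho was 0.45, 0.42, 0.43 and 0.40 in that order. The points of one array share its background, and miRNAs are not independent replicates. Whether composition changed the signal at equal abundance was not tested.

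Set beside other probes of like composition, the members were detected less often. Of members with at least 60% G and C, 6 of 18 were detected on all 4 arrays, or 33.3%, against 187 of 400 other probes, or 46.8%. From 50% to under 60% it was 1 of 31 members, or 3.23%, against 20.04% of the others. From 40% to under 50% it was 1 of 31 members against 68 of 367 others, or 18.5%. Under 40% it was 0 of 17 members against 12.5% of the others. These are descriptions with no test.

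**Figure D5:**
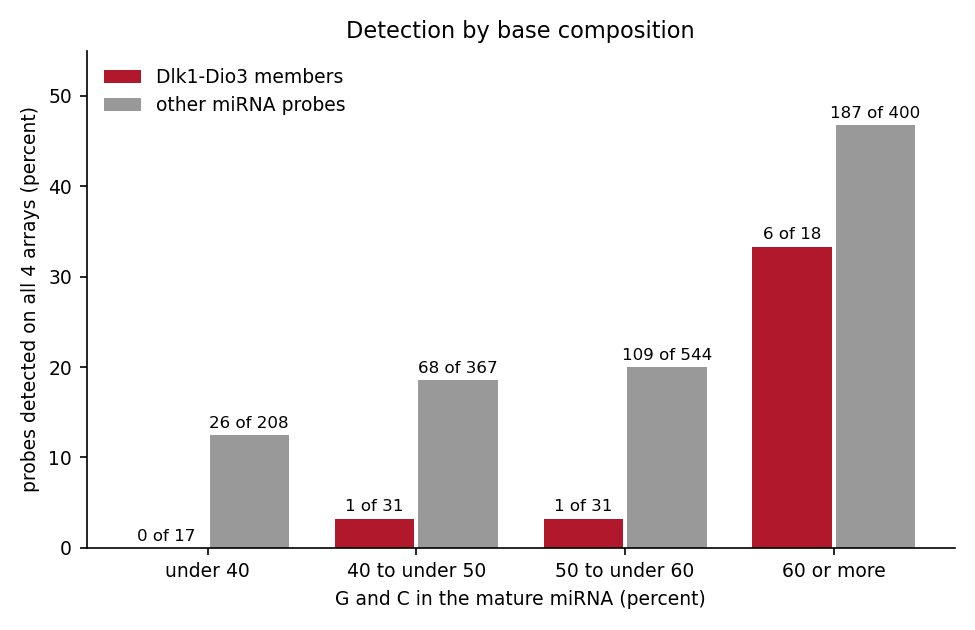
Share of probes detected on all 4 arrays (percent) by the G and C share of the mature miRNA, for cluster members in red and other miRNA probes in grey, with counts above the bars. In each of the 4 classes the red bar is lower than the grey one, and both are highest at 60% or more.

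A second imprinted group of miRNAs, in an intron of Sfmbt2, served for comparison. Of its 71 probes for miR-297, miR-466, miR-467 and miR-669, 19 were detected on all 4 arrays and 17 on none. The members here had 9 and 65 of 101, or 8.91% and 64.4%, and all probes had 25.4% and 43.6%. The Sfmbt2 probes were taken by miRNA number alone, and a sequence was matched for only 8 of the 71. Base composition was therefore not compared between these 71 probes and the members. On the Wnt3a, Wnt4, Wnt5a and GFP arrays, the Dlk1-Dio3 members had medians of 78.7, 70.5, 86.0 and 87.8 units and the Sfmbt2 probes 92.9, 75.8, 93.8 and 97.4 units. With 1 array per group, this contrast between the clusters was not tested. A cluster on the X chromosome, with miR-322 and miR-503, was chosen with earlier results of these data known. It gave a median log2 difference of -0.67 with Wnt3a against GFP over 8 detected probes, where the Dlk1-Dio3 members had 0.01 over 14. Its medians were 0.11 with Wnt4 and -0.04 with Wnt5a, over 6 probes each. The members had 0.03 over 10 with Wnt4 and 0.10 over 9 with Wnt5a. This contrast was not tested.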

How the data were processed

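miRNA intensity was read on 4 one-colour arrays. Per the labels' protocols, total RNA was labelled with Hy5. Per the file headers, arrays were scanned at 635 nm at 3 gains, and each deposited scanner file gives the unprocessed median intensity of 3200 spots. The authors' deposited table holds processed intensity values, equal to the spot median less a constant, times 1 factor per array, within 0.051 units. Software, genome build and array design are not given with the deposited data. The build named with the sequences is that of the RefSeq annotation.

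Of 1900 miRNA probes with 1 spot each, 2 that the GFP array's file flags as bad were left out. Spot medians were corrected by normexp (offset 50, fitted on all spots) and quantile-normalized over the 1898 probes with limma 3.58.1 in R 4.3.3. The file's background column follows the signal and served as an alternative. Later steps used Python 3.11.15, numpy 2.4.6, pandas 2.3.3, scipy 1.17.1 and matplotlib 3.10.9. Differences are log2 values of one array minus another, for miRNAs detected on both. The offset shrinks differences of dim probes. The spot-noise SE combines the pooled SD of log2 values over 24 control probes with 8 or more spots on each of 2 arrays. The number of arrays limits the precision. With 1 array per group there is no test, and array and group cannot be told apart. The counting was tested on simulated data with changes planted only in bright probes. That test does not cover the dim members.

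Named miRNAs are those detected on all 4 arrays, their partner arms where described, those of partial detection that exceeded the limit most, and the 3 largest differences each way per comparison. Others were named after their values were seen. Members and lists were chosen with earlier results of these data known. Coordinates are left out, since no build is named with the deposited data.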

Additional observations from a re-analysis of the deposited data

How the results depend on the processing

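No paired analysis was possible because each group had 1 array. The signs of single members were small against the spot noise and several turned between settings. With the limit at 5 SD, 15 members were detected with Wnt3a, 8 with Wnt4 and 9 with GFP. With the limit from negative control probes, there were 9 with Wnt3a and 9 with GFP, and with a limit from spots without probe, added after seeing the data, 22 with GFP. Under all of these limits 8 members stayed detected on all 4 arrays. Under plain subtraction of the blank mean, 3 members were at least 1.5-fold different with Wnt3a (median 0.35) and 3 with Wnt4 (median -0.22). With the background column, 2 passed 1.5-fold and 1 passed 2-fold with Wnt4 (miR-494-3p, at -1.33), and 1 passed 1.5-fold with Wnt5a. In the authors' deposited table, 16 passed 1.5-fold and 15 passed 2-fold with Wnt3a (median 1.55), 3 passed 1.5-fold with Wnt4 (median -0.16), and 3 passed 1.5-fold and 1 passed 2-fold with Wnt5a (median -0.38). In that table the median of all probes was 1.47, -0.28 and -0.59 for the 3 ligands, so relative to it the members moved by 0.08, 0.12 and 0.21. Rescaled on miRNAs listed on all arrays, it had 1 member past 1.5-fold with Wnt3a and 1 with Wnt4. Without normalization between arrays the Wnt4 median was -0.17, beside -0.17 for all probes. Without a filter on dim probes 1 member passed 1.5-fold with Wnt4, and with Wnt5a 1 passed both folds, which was miR-654-5p. The other settings were normalization by the median, on bright control probes or by cyclic loess, normexp with offset 16, and no background correction. Under them 0 members passed 1.5-fold. Dim signal over background limits the folds that could be seen for nearly all members.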

Other observations

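The array held 17 further miRNA probes that the RefSeq annotation places between Dlk1 and Dio3 and that the list of miRNA numbers leaves out. Of these, 2 were detected on all 4 arrays, 1 on 3, 2 on 2, 4 on 1 and 8 on none. Among the 101 members 9 were detected on all arrays and 65 on none, and among all 1898 probes 482 and 827. miR-1247-3p read 841 units with Wnt3a, 683 with Wnt4 and 766 with Wnt5a, against 761 with GFP, with log2 differences of 0.14, 0.10 and 0.03. miR-1906, which has 2 gene copies in the annotation and 1 of them outside the region, read 297.4, 209.6 and 258 units with the ligands and 248 with GFP. Its differences were 0.26, 0.00 and 0.03. Both held 66.7% or more of G and C, as 6 of the 8 sequenced members detected on all arrays held 60% or more.

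miR-3544-3p, named after its value was seen, comes from a gene that overlaps that of miR-337 in the annotation. It read 85.4 units with Wnt3a, 115.8 with Wnt4 and 94.1 with Wnt5a, against 90.2 with GFP, and was over the limit with Wnt3a and Wnt4. Both arms of miR-337 were below the limit on all 4 arrays.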
